A study of Homo sapiens with 6 samples.

Results

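The retinoid receptors and binding proteins described here are 9 genes: the retinoic acid receptors RARA, RARB and RARG, the retinoid X receptors RXRA, RXRB and RXRG, the cellular retinoic acid binding proteins CRABP1 and CRABP2, and the retinal reductase DHRS3. They were chosen by name from the 60709 genes of the count table, and each matched 1 Ensembl identifier. The study sequenced messenger RNA of SH-SY5Y, a long-established line derived from a human neuroblastoma, which grows as adherent neuroblast-like cells. Its labels list 3 control samples that received 10 uL of DMSO and 3 samples that received Nrf2-peptide-linked fumarate in water plus the same amount of DMSO. Wells of both groups held 2 mL of medium with 10% serum, were 80% confluent at treatment and were lysed 5 h later. No addition of water to the control wells is given in the labels. The labels name no added retinoid in either group.

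Only the columns numbered 4, 5 and 6 carry the numbers of labelled samples, those of the controls. The peptide samples are numbered 13 to 15 in the labels and were not analysed here, so no effect of the peptide on these genes is reported. The match rests on those numbers alone, and if the columns had been renumbered, the values below could be those of peptide-treated cells. Whether the 3 libraries came from separate cultures is not stated, so the SD given with each mean covers the spread between these libraries, which may be technical. Replicate 3 stood apart from the other control libraries in depth, in mitochondrial share and in a trend with GC content, and values without it are given where they matter.

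Retinoic acid is made from vitamin A. Retinol enters cells through carriers such as STRA6, is oxidised to retinal by retinol dehydrogenases and to retinoic acid by ALDH1A enzymes, and is broken down by CYP26 enzymes. Retinoic acid binds RAR proteins, which sit on DNA as pairs with RXR proteins and recruit co-repressors without ligand and co-activators with it. In neuroblastoma lines, retinoic acid is known for slowing growth and inducing neurite outgrowth, and RARB, CYP26A1, DHRS3 and CRABP2 are among the genes it induces.

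RAR and RXR pairs bind direct repeats of a 6-base unit. The unit AGGTCA and its relatives AGTTCA, then GGGTCA and lastly GGTTCA were searched on both strands, in any combination, as direct repeats with 1, 2 or 5 bases between them (named DR1, DR2 and DR5), in RefSeq promoter windows of GRCh38.p14 that run from 250 bases before to 50 after a gene's start. The 9 genes have 18 such windows, and a repeat was found in 1 of them, at a start of RARB. Among the genes listed as induced by retinoic acid, CYP26A1 also had a repeat. Both are DR5, and they are shown because they mark the genes whose levels can be read beside a known binding motif; capitals mark the repeat units.
RARB, chr3:25428210-25428226, plus strand, from 53 to 37 bases before the start: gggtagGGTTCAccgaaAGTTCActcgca
CYP26A1, chr10:93073803-93073819, minus strand, from 90 to 74 bases before the start: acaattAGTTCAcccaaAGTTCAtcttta
The CYP26A1 repeat lies on the strand opposite to the gene and is written 5′ to 3′ on that strand. Of all 35116 windows, 0.0883% held a DR5 and 0.259% held any of the 3 repeats. TGM2 and PLAAT4, also listed as induced by retinoic acid, had no window and were not searched. RARB has 4 windows and the deposited counts are per gene, so they do not show which start the RARB reads came from.

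A gene counts as measured below where each of the 3 libraries had 10 counts or more for it. Of the 9 genes, 8 were measured and RXRG had no reads, against 22.9% measured of all genes in the table. The table also holds noncoding genes, such as the antisense gene RARA-AS1, and no share for protein-coding genes alone is given here. Levels are given as CPM, counts per 1000000 after scaling, for 1 gene across libraries. Levels of different genes are compared as RPKM, that is CPM per kilobase of the gene's longest transcript; the sums over marker lists are in CPM. CRABP1 was the highest and DHRS3 the lowest of the 8. The order by RPKM was CRABP1, RXRB, CRABP2, RARA, RARG, RARB, RXRA and DHRS3. Neighbours in this order did not overlap between libraries, except RARB and RXRA. RARB had 5.32 ± 0.104 and RXRA 5.21 ± 0.365 RPKM (SD, n = 3), and RARB was the higher in 2 of 3 libraries. With the union of all annotated exons as length the order was the same. With the median length of the annotated transcripts, CRABP1 stayed first and DHRS3 last, but RARG (46.6) stood second and RARA (29.1) was above CRABP2 (23.0). For scale, the median over the 13863 measured genes with a known length was 8.34 ± 0.0961 RPKM. In bulk RNA, fewer cells with a transcript and less of it per cell cannot be told apart, which holds for each level given here.

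**Figure D1:**
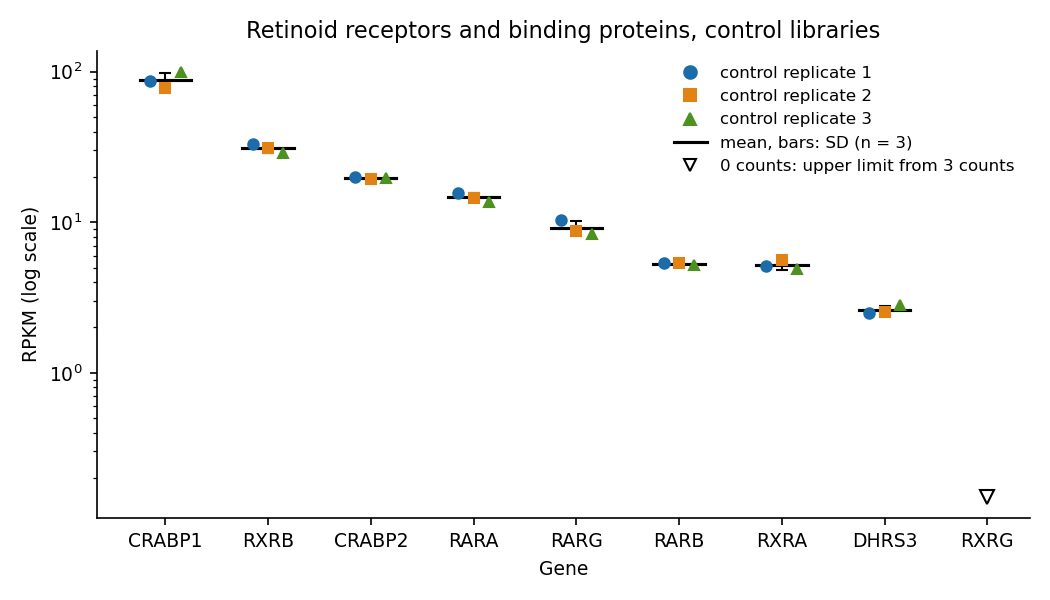
Levels of the 9 genes in the 3 control libraries, as RPKM (CPM per kilobase of the longest transcript) on a log axis; coloured symbols are libraries, black lines the mean and bars the SD (n = 3). CRABP1 lies between 78.2 and 99.6, above all others, and the open triangle marks the limit of 0.150 for RXRG, which had 0 counts.

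RARA, the most broadly expressed retinoic acid receptor in most tissues, was the highest of its family. RARA (ENSG00000131759.18, chromosome 17, 40309180 to 40357643 in GRCh38.p14) had 512, 506 and 368 counts in control replicates 1, 2 and 3, which are 47.9, 44.3 and 41.6 CPM. Its mean was 44.6 ± 3.17 CPM (SD, n = 3), and replicate 3 was the lowest.

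RARG (ENSG00000172819.17, chromosome 12, 53210569 to 53232209), a receptor best known from skin and skeletal development, came next per length. It had 326, 294 and 220 counts, or 30.5, 25.7 and 24.8 CPM. Its mean was 27.0 ± 3.03 CPM, with replicate 1 above the other replicates.

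RARB (ENSG00000077092.19, chromosome 3, 24829321 to 25597932), itself induced by retinoic acid and the holder of the DR5 printed above, was the lowest of the family. It had 177, 190 and 142 counts, or 16.6, 16.6 and 16.0 CPM, a mean of 16.4 ± 0.322 CPM. The libraries differed by less than counting alone would give, since the coefficient of variation was 1.96% and the counting error of a single library 7.25 to 8.39%. Its level per length was 0.364 ± 0.0206 of that of RARA.

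The RAR family together had 31.4, 28.6 and 27.3 RPKM in replicates 1, 2 and 3. RARA made up 50.4 ± 0.407% of this sum (SD, n = 3), RARG 31.3 ± 1.30% and RARB 18.3 ± 1.08%. The first place depends on the length taken for each gene. With the union of all annotated exons the shares of RARA, RARG and RARB were 49.2%, 27.5% and 23.3%. With the median length of the annotated transcripts RARG led with 52.5% against 32.9% for RARA, since the 18 annotated RARG transcripts have a median of 579.5 bases against 2959 for the longest. RARB had the smallest share under each of these lengths.

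The retinoid X receptors, which pair with RAR proteins and with several other nuclear receptors, were mostly RXRB. RXRB (ENSG00000204231.11, chromosome 6, 33193588 to 33200853) had 1026, 1038 and 741 counts, or 95.9, 90.8 and 83.7 CPM. Its mean was 90.2 ± 6.16 CPM, and per length it was above 84.8% of the measured genes with a known length. Replicate 3 was again the lowest.

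RXRA (ENSG00000186350.12, chromosome 9, 134326455 to 134440585), the main RXR of liver and skin, had 318, 369 and 249 counts, or 29.7, 32.3 and 28.1 CPM. The mean was 30.0 ± 2.10 CPM. RXRG (ENSG00000143171.13, chromosome 1, 165400922 to 165445126), an RXR known from muscle and parts of the brain, had 0 counts in each library. The limit set by 3 counts lies at 0.263 to 0.339 CPM, depending on the library, and covers counting error only. RXRB was at least 191-fold higher than RXRG per length, taking 3 counts per library for RXRG.

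Per length, RXRB made up 86.5%, 84.8% and 85.5% of the RXR family in replicates 1, 2 and 3, a mean of 85.6 ± 0.845%. RXRA made up the other 14.4 ± 0.845%. The share of RXRB was 84.3% and 89.4% with the other lengths, so RXRB led under all 3 lengths. Without replicate 3 the share of RXRB was 85.6% and that of RARA in its own family 50.5%. The sum of the RXR family was 36.2 ± 2.31 RPKM and its ratio to the RAR family 1.24 ± 0.0368. With the median transcript length that ratio was 0.611, so which family is more abundant depends on the lengths.

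**Figure D2:**
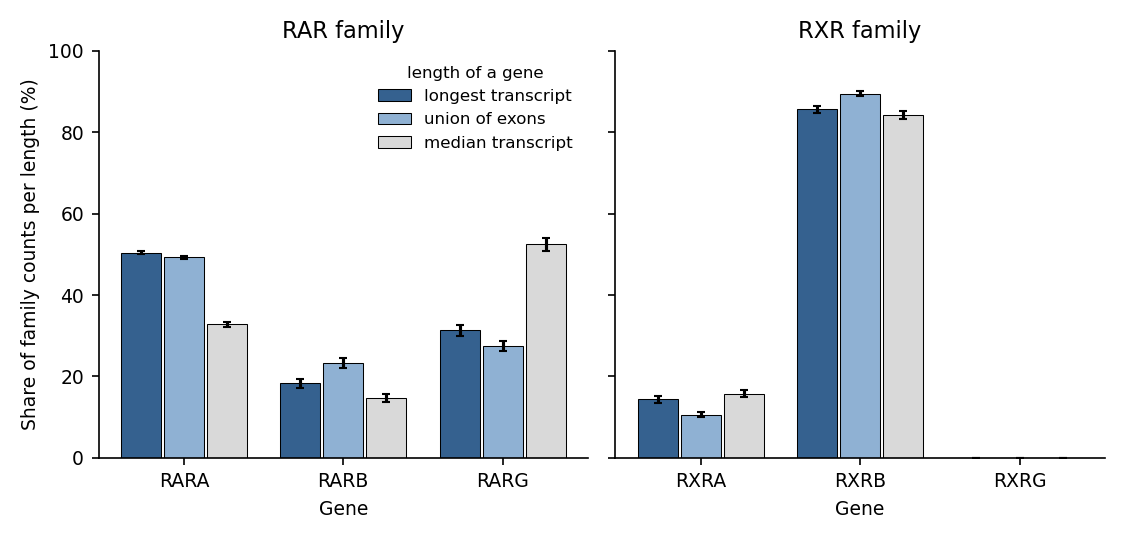
Share of each gene in the counts per length of its family, in percent, with 3 ways of taking a gene's length; bars are means of the 3 control libraries and error bars the SD (n = 3). RXRB holds 84.3 to 89.4% of its family in each case, while the leading RAR is RARA with 50.4% or 49.2%, or RARG with 52.5%.

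CRABP1 and CRABP2 carry retinoic acid in the cytoplasm; CRABP2 is known for delivering it to RAR proteins in the nucleus, and CRABP1 for directing it to breakdown and for cytoplasmic roles. CRABP1 (ENSG00000166426.8, chromosome 15, 78340353 to 78348225) had 711, 690 and 681 counts, or 66.5, 60.4 and 76.9 CPM. Its mean was 67.9 ± 8.35 CPM (SD, n = 3), and replicate 3 was the highest. Per length, CRABP1 had 88.0 ± 10.8 RPKM, higher than 96.2% of the 13863 measured genes with a known length. Without replicate 3 it had 82.2 RPKM.

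CRABP2 (ENSG00000143320.9, chromosome 1, 156699606 to 156705784) had 221, 229 and 181 counts, or 20.7, 20.0 and 20.4 CPM. The mean was 20.4 ± 0.317 CPM and the spread of 1.56% was below the counting error of 6.61 to 7.43%. The level of CRABP1 per length was 4.30, 4.03 and 5.03 times that of CRABP2 in replicates 1, 2 and 3, with CRABP1 higher in each. The mean ratio was 4.46 ± 0.518, and it was 3.69 and 5.07 with the other lengths. Without replicate 3 it was 4.17.

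DHRS3, which reduces retinal back to retinol and so limits the making of retinoic acid, was the lowest of the 8 measured genes. DHRS3 (ENSG00000162496.9, chromosome 1, 12567910 to 12618210) had 46, 50 and 43 counts, or 4.30, 4.38 and 4.86 CPM. Its mean was 4.51 ± 0.301 CPM, and per length it was above 23.2% of the measured genes with a known length. The libraries could not be told apart at this depth, since the counting error of each was 14.1 to 15.3%. None of its 3 promoter windows held a searched repeat.

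Elsewhere in the pathway, the retinol receptor STRA6 was high and the enzymes that break retinoic acid down were near 0. In all, 70 of 71 genes in 8 pathway lists were found, and 42 were measured. Of 10 uptake, carrier and storage genes 4 were measured. STRA6, the membrane receptor for retinol bound to its plasma carrier, had 3323, 3213 and 2279 counts, and 98.1 ± 9.26 RPKM. The range of STRA6 per length overlapped that of CRABP1, and with the union of exons STRA6 was the lower, at 36.8 against 68.4. FABP5, a carrier that can also deliver retinoic acid, had 10.5 ± 0.970 RPKM. LRAT, which esterifies retinol for storage, had 0 counts in each library.

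Of 15 enzymes that interconvert retinol and retinal, 7 were measured. ADH5, an alcohol dehydrogenase with other main substrates, was the highest with 52.8 ± 3.20 RPKM, followed by DHRS7 with 30.6 ± 1.69. RDH11 had 24.4 ± 1.76, but with the median transcript as length it was above DHRS7, at 111 against 88.1. RDH10, the dehydrogenase that supplies retinal for retinoic acid in the embryo, had 2.22 ± 0.249 RPKM. RDH8, DHRS9, ADH1C and ADH7 had 0 counts in each library.

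The enzymes that make retinoic acid were low per length of the longest transcript. Of 4 such genes, ALDH1A3 alone was measured, with 96, 103 and 84 counts and 2.33 ± 0.0723 RPKM. With the median transcript as length ALDH1A3 had 12.8, against 13.0 for RARB. ALDH1A2 had 11, 7 and 13 counts, or 0.253 ± 0.104 RPKM, and ALDH1A1 had 0 in each library.

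None of the 3 breakdown enzymes reached 10 counts in any library. CYP26A1, whose promoter repeat is printed above, had 0, 0 and 1 counts. CYP26B1 had 4, 5 and 4 counts, and CYP26C1 had 0 in each library. RARB and CYP26A1 thus both carry a DR5 close to a start, and had 142 to 190 counts and 0 to 1 count per library, respectively. The repeats differ in their spacers and in 1 repeat unit, GGTTCA in RARB and AGTTCA in CYP26A1, and what these sequences do in these cells was not tested.

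**Figure D3:**
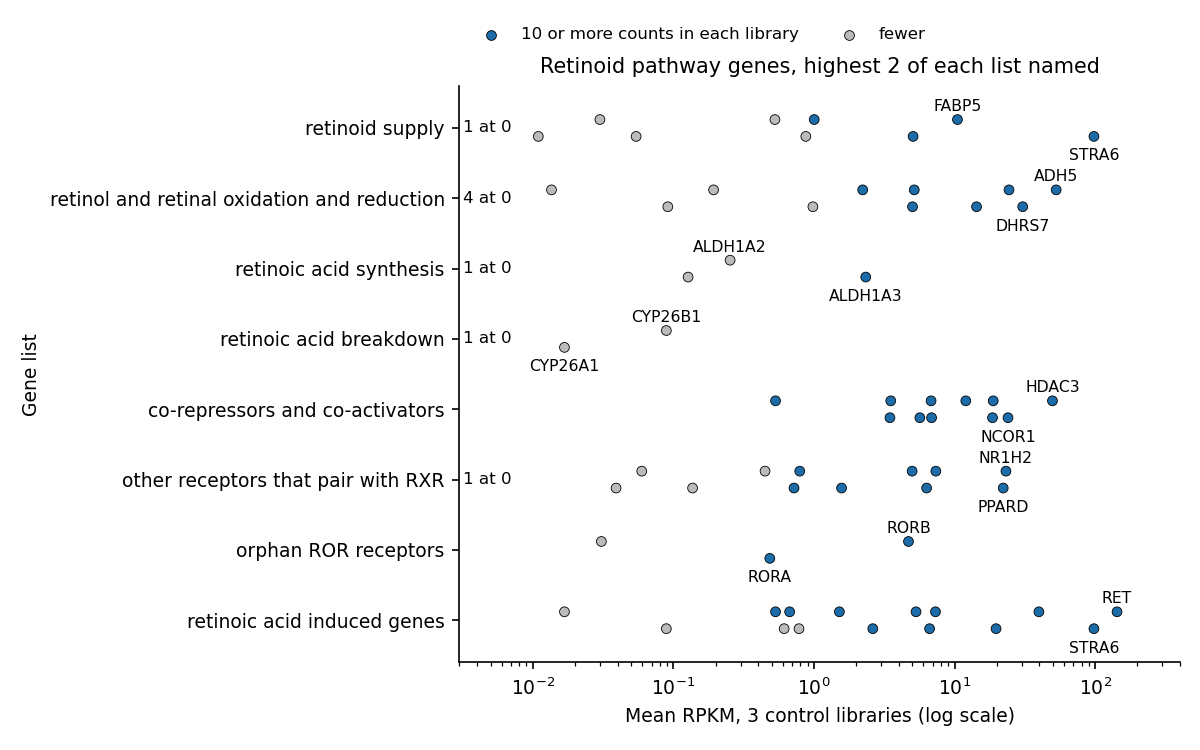
Mean RPKM over the 3 control libraries on a log axis for each gene of 8 retinoid pathway lists; blue points are measured genes, with 10 or more counts in each library, and grey points had fewer, and genes with 0 counts are given as a number at the left. RET at 143 and STRA6 at 98.1 lie far to the right of CYP26B1 at 0.0890 and CYP26A1 at 0.0168.

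All 11 co-repressor and co-activator genes were measured, with a median of 7.09 ± 0.422 RPKM. HDAC3, a deacetylase of the co-repressor complex, was the highest with 49.7 ± 1.66, and NCOR1, which RAR proteins bind without ligand, followed with 24.0 ± 0.878. NRIP1, a ligand-dependent co-repressor, was the lowest with 0.532 ± 0.0241. With the median transcript as length CREBBP (376), EP300 (234) and NCOR1 (214) were all above HDAC3 (135).

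Of 13 other receptors that pair with RXR, 8 were measured. NR1H2, a receptor for oxysterols, had 23.2 ± 0.229 RPKM and PPARD, a fatty acid receptor, 22.2 ± 0.700. With the longest transcript as length both were below RXRB and above RARA in every library, but with the median transcript NR1H2 (61.8) was above RXRB (45.6) and PPARD (23.8) below RARA (29.1). NR1H4, the bile acid receptor, had 0 counts. Of the orphan ROR receptors, RORB had 4.70 ± 0.329 and RORA 0.485 ± 0.134 RPKM, and 2 of 3 were measured. With the median transcript the mean of RORA (8.62 ± 2.38) was above that of RORB (7.15 ± 0.501), by less than the SD of RORA. RORA had 41, 77 and 46 counts.

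Among 15 genes listed as induced by retinoic acid, which include RARB, CRABP2 and DHRS3, 11 were measured. RET, a receptor tyrosine kinase, was the highest with 143 ± 14.3 RPKM, and STRA6 the next, but with the median transcript as length MEIS2 (177) was above STRA6 (127). The median was 2.62 ± 0.175 RPKM over the 15 genes and 6.43 ± 0.843 over the 11 measured, against 8.34 over all measured genes.

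The measured receptors had their lowest values in the library that stood apart, but they did not all shift alike. Replicate 3 had the lowest total, 8887854 counts against 10683037 and 11397407, and the highest share from mitochondrial genes, 6.25% against 4.11% and 3.83%. Across 10290 nuclear genes it was higher for transcripts of low GC content and lower for those of high GC content. All 5 measured receptors were lowest in replicate 3 under each scaling tried, but with the GC trend removed only RARB was. The share of all genes that were lowest in replicate 3 is not given here. For RARG the wider gap was between replicate 1, at 30.5 CPM, and the others, at 25.7 and 24.8. RXRA had 29.7, 32.3 and 28.1 CPM in replicates 1, 2 and 3. For RXRB, RARG, RXRA and RARA, with transcripts of 58.5 to 63.0% GC, the log2 ratio of replicate 3 to the mean of replicates 1 and 2 lay between -0.18 and -0.14. The median of genes in the same GC bins was -0.17 or -0.23. Removal of the trend brought these ratios to between -0.0020 and 0.062, and the SD fell for these 4 genes only. The coefficient of variation of RXRB fell most in proportion, from 6.83% to 1.13%, which is below its counting error in each library. For RARB it rose from 1.96% to 5.77%, for CRABP2 from 1.56% to 6.05% and for DHRS3 from 6.67% to 12.7%. Removal of the trend thus did not narrow the spread of all measured genes. RARB, with 42.6% GC, had a ratio of -0.05 where its GC bin had a median of 0.12, and the difference between its libraries was within counting error.

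CRABP1 lay outside that trend by more than its counting error. CRABP1, with 57.8% GC, had a log2 ratio of 0.28, where the genes of its GC bin had a median of -0.14 and a 95th percentile of 0.11. In the same bin CRABP2, at 0.01, lay within the 5th to 95th percentile, and DHRS3 had 0.16. With the trend removed, the ratio was 0.42 for CRABP1, 0.31 for DHRS3 and 0.15 for CRABP2, and the coefficient of variation of CRABP1 rose from 12.3% to 17.8%. The spread of CRABP1 exceeded its counting error of 3.75 to 3.83%, while the libraries of DHRS3, with 43 to 50 counts, differed within counting error. Without replicate 3, CRABP1 had a mean of 63.4 CPM. The part of library preparation, RNA quality or the cells themselves in the high CRABP1 value of replicate 3 was not tested.

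**Figure D4:**
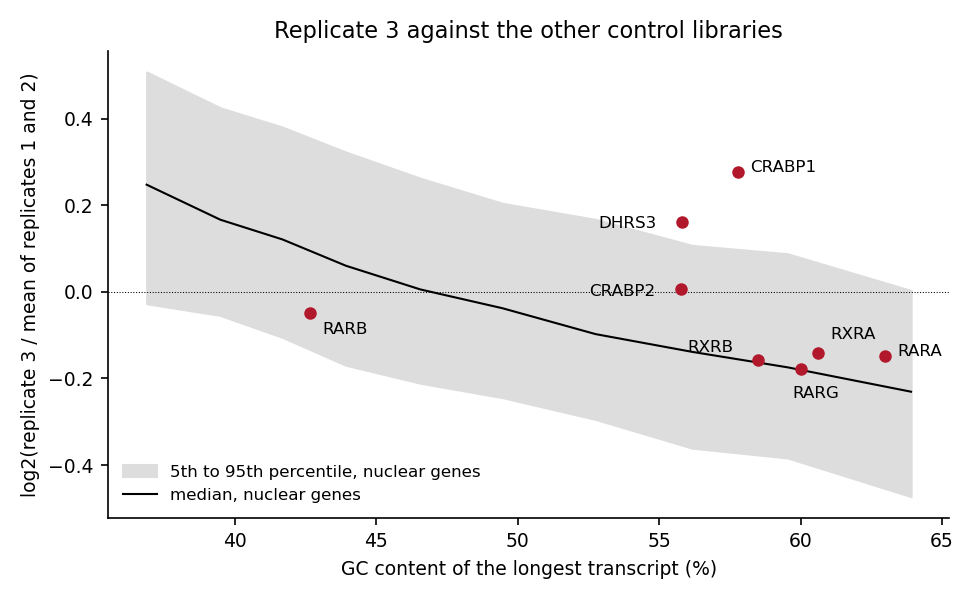
Log2 ratio of control replicate 3 to the mean of replicates 1 and 2, by GC content of the longest transcript; the black line and grey band are the median and the 5th to 95th percentile of nuclear genes in 10 bins of 1029, and red points are the 8 measured genes. RARA, RARG, RXRA and RXRB lie near the median line, and CRABP1 at 0.28 lies above the band. The band holds only genes whose counts averaged 100 or more. DHRS3 at 0.16 also lies above it, but had 43 to 50 counts and differed between libraries within counting error.

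No stretch of 50 bases or more of the 9 longest transcripts occurred in an annotated transcript of another gene, on the same strand. Exons of 4 of the genes overlap exons of genes on the opposite strand, and whether the counting used strand is not stated. The overlap was 28 bases of RARB with TOP2B, which had 3290 to 4073 counts, and 6.22% of the exon bases of RXRB with SLC39A7, which had 1781 to 2568 counts. It was 11.8% of RARA with RARA-AS1, which had 39 to 49 counts, and 6.15% with AC080112.3, which had 7 to 17. For CRABP1 it was 47.2%, with AC011270.2, which had 2 to 4 counts. How many receptor reads fall in these overlaps was not tested.

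Markers of sympathetic neuroblastoma were high, with 12 of 13 measured and a summed level of 4140 to 4548 CPM. HAND2 had the highest level per length, 329 RPKM, and TH, the first enzyme of catecholamine synthesis, had 0 counts. Of 9 mesenchymal or fibroblast markers, 7 were measured, with a sum of 598 to 615 CPM and PRRX1 at 0. TWIST1 at 112 and COL3A1 at 57.0 RPKM were the highest of these per length. With means of 187 and 316 CPM they made up most of the sum. Every other marker of this list was at or below the 5.74 RPKM of PDGFRB, and COL1A2 had 1, 3 and 2 counts. The median over the 9 was 4.86 ± 0.200 RPKM, against 8.34 over all measured genes. Of 6 Schwann or glial markers 2 were measured, with a sum of 6.48 to 8.58 CPM and SOX10 at 0. Of 5 epithelial markers 1 was measured (2.15 to 3.15 CPM in sum, CDH1 at 0), and of 5 immune markers 1 (1.92 to 2.62 CPM, CD3E at 0). COL3A1, TWIST1, PDGFRB, COL1A2, HAND2, TH and the markers at 0 were chosen after their values were seen.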

How the data were processed

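The authors deposited raw counts per Ensembl gene identifier for messenger RNA libraries. The submitters' processing notes list fastp 0.21.1, STAR 2.7.7a, featureCounts and the build GRCh38; the annotation release, the strand setting and the treatment of shared reads are not given in the sources used here. Of 6 count columns, 3 matched control samples by number and 3 columns of per-sample values matched no label and were not used. The entry of ANK2, broken over several lines, has no value in the used columns, which left 60709 genes, of which 60436 had a symbol. The planned edgeR test of peptide against control samples was not run, since columns matched 1 group only.

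CPM were computed with edgeR 4.0.16 (TMM factors; R 4.3.3). Lengths and GC content are those of the longest transcript in GENCODE release 29 (GRCh38), which may differ from the authors' annotation; 58404 genes had one. The GC trend was the median log2 deviation of each library in 50 bins, over nuclear genes whose counts averaged 100 or more and never fell under 10, and was checked on simulated data. Coordinates and promoters are from RefSeq (GRCh38.p14). Depth was 8887854 to 11397407 counts per library. Limits for 0 counts cover counting error only, since no molecular identifiers are stated. Tables were made with Python 3.11.15, numpy 2.4.6 and pandas 2.3.3.

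The 9 genes and the pathway and marker lists were chosen with earlier results of these data known. Named genes are the 9, pathway genes named whatever their values, the 2 highest of each list per length, and list genes with 0 counts in all libraries; other names were chosen after their values were seen. No gene was named by likeness of pattern, since 3 libraries of 1 group give none. Some genes of the planned lists are not reported here and were left out of the counts. Identity between the proteins was planned and not computed. Alternatives were other scalings, other lengths, removal of the GC trend, a total without mitochondrial genes, other count minimums and each library left out.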

Additional observations from a re-analysis of the deposited data

How the results depend on the processing

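The length taken for a gene moved the levels most. With the union of exons, the RAR family went from 29.1 to 19.1 RPKM, the RXR family from 36.2 to 25.7, CRABP1 from 88.0 to 68.4, CRABP2 from 19.7 to 18.5 and DHRS3 from 2.62 to 1.49. With the median transcript they were 88.7, 54.1, 116.5, 23.0 and 4.85. The share of RARA went from 50.4% to 49.2% and 32.9%, and that of RXRB from 85.6% to 89.4% and 84.3%, in the same order. These shifts follow from the lengths themselves. Leaving mitochondrial genes out of the total raised each gene by 4.97% and moved CRABP2 to 20.7 RPKM, more than its small SD. It also moved the CPM of RARB and CRABP2, the 2 values of 63 that moved by more than 1 SD. Scalings that act between libraries leave a mean of 3 nearly unchanged, and leaving out a library cannot move it by 1 SD. RXRG stayed at 0 under each setting. Such values are among the 63 and say little about stability. Of the 9 genes and the pathway genes together, 76 in all, 47 were measured. This count rose to 53 with a minimum of 5 and to 61 with a minimum of 1. It was 48, 48 and 49 without replicates 1, 2 and 3. A lower minimum or fewer libraries can only raise the count, so these values do not test its stability. No paired analysis was possible because the samples with columns all belong to 1 group. The alternatives planned for the comparison of peptide with control samples were not run. Of the 8 measured genes DHRS3 is limited most by depth, with a counting error of 14.1 to 15.3% per library.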
